A study of Mus musculus with 3 samples.

Results

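The cells described here are epithelial cells of the YAP5SA library that held at least 2 of 6 genes (Cxcl5, Mmp7, Ahsg, Alb, Wnt7a and Crct1) at 1 or more unique molecular identifiers (UMIs, each counting 1 captured mRNA). They were chosen for this expression, so their levels of these genes are given as a description. A cell entered the epithelial gate with 500 or more genes, at most 20% mitochondrial UMIs, 2 or more of Epcam, Cldn7, Cdh1, Cldn4 and Cldn3, and Krt8, Krt18 and Krt19 together at 0.3% of UMIs or more. It also had fewer than 4 of 10 mitosis genes. The gate held 1290 YAP5SA cells, of which 115 (8.91%, exact Clopper-Pearson 95% interval 7.42 to 10.6) were members, 261 had 1 of the genes and 914 had 0. The members were 1.27% of the 9029 YAP5SA cells that passed the gene and mitochondrial limits, out of 22870 cells in the series.

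The series profiled dissociated hindstomach (glandular stomach) of mouse embryos at E18.5 with 3′-tagged droplet libraries. There was 1 library each for Shh-Cre (control), Shh-Cre;YAP5SA, and Shh-Cre;YaploxP/loxP (YapKO). All 3 genotypes therefore carry Shh-Cre, a recombinase driven in the gut epithelium, and YAP5SA is a form of the coactivator YAP whose inhibitory serines are mutated. The labels do not say how many embryos a library pooled. Since cells of 1 library are not replicates, no difference has a replicate check and no p-value is given. Every interval covers counting error only.

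Acute-phase proteins are plasma and defence proteins whose output changes during inflammation. The liver is their main source, and epithelia also make some of them, such as lipocalin 2, which binds bacterial siderophores. YAP acts on genes through TEAD transcription factors, and its classical targets include Ankrd1, Ccn1 and Ccn2. The stomach epithelium before birth makes chymosin and pepsinogens, proteases of milk and protein digestion, and trefoil peptides of the mucus layer.

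The 3 libraries held 7692 control, 9439 YAP5SA and 5739 YapKO cells, with 48910624, 65843658 and 40857358 UMIs. The members had a median of 11133 UMIs, against 7262 in cells with 1 rule gene and 5093.5 in cells with 0. A deeper cell has more chances to show 2 genes, so shares of cells are also given after each cell was thinned to 2000 UMIs, and levels are given as CPM (UMIs per 1000000 in the summed cells). Some ratios are also given in cells of 5000 to 10000 UMIs, which held 24 members and 265 cells with 0 rule genes. Another 64 members lay above 10000 UMIs, and the mix of members inside that band was not tested. The YAP5SA and control matrices shared 2409 cell names and the YAP5SA and YapKO matrices 1528. These names are serial labels, not barcode sequences. Of the members, 5 (4.35%) were among the highest 6% of doublet scores of the library, against 79 (8.64%) of the cells with 0 rule genes.

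Wnt7a, a secreted Wnt ligand, was the rule gene found in most members (79 of 115), and 90 members had exactly 2 rule genes, 23 had 3 and 2 had 4. Mmp7, the secreted protease matrilysin, was found in 57 members and Cxcl5, a chemokine that draws neutrophils, in 53. Crct1, a gene of stratified and cornifying epithelium, was found in 36. The plasma protein genes were the least frequent, with Alb (albumin) in 18 and Ahsg (fetuin-A) in 14. At least 2 of the 4 genes other than Alb and Ahsg were present in 91 members, and 24 members needed Alb or Ahsg to qualify.

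The promoters of Lcn2, Mmp7, Wnt7a and Ankrd1 were searched for 2 motifs, and the 2 promoters with a match are shown. They belong to Ankrd1, the TEAD target furthest above the comparison cells, and Mmp7, a rule gene. Cxcl5 and Crct1 had no entry among the promoters used. Each run is the 250 bases before the annotated start in RefSeq, build GRCm38.p6, read 5′ to 3′ on the gene's strand. The counts themselves were made on another build, so these coordinates belong to the promoters only. Capitals mark the TEAD motif GGAATG or the AP-1 motif TGANTCA, both searched on both strands. Ankrd1 lies at chr19:36119845-36120094 on the minus strand, and Mmp7 at chr9:7691840-7692089 on the plus strand (the first of 2 listed starts).
Ankrd1: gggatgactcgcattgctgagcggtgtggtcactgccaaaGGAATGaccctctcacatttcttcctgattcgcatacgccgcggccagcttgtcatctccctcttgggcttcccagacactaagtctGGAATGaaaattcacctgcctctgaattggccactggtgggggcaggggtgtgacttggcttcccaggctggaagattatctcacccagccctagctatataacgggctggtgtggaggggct
Mmp7: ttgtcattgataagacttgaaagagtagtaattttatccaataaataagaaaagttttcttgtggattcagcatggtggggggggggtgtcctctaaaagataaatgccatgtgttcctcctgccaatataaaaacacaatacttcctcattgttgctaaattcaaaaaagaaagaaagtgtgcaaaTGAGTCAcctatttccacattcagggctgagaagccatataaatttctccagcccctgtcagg
The Ankrd1 window holds 2 GGAATG matches, whose first bases lie at -210 and -123 from the start. Of all 32851 promoter windows of this length, 12.6% hold at least 1 such match and 1.02% hold 2 or more. The Mmp7 window holds 1 AP-1 match, TGAGTCA, at -63, and 6.75% of windows hold the AP-1 motif. The windows of Lcn2 and Wnt7a hold neither string. A match describes letters only.

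Cxcl5 and Mmp7 were found together, and Wnt7a was found with them and with Crct1. Alb and Ahsg were not part of that pattern. Each gene was held out in turn and read in gated cells chosen by the other 5. Cxcl5 stood at 161 CPM in 83 cells with 2 or more of the others and at 5.64 CPM in 940 cells with 0, a ratio of 28.6 (20.0 to 42.0). In those cells it was present in 25.3% against 2.77% (11.5% against 1.77% after thinning). Mmp7 was 9.92-fold higher (7.50 to 13.2), in 27.5% of cells against 3.48% (13.2% against 1.13% after thinning). Wnt7a was 2.82-fold higher (2.08 to 3.78), in 25 of 61 cells against 98 of 1012, and after thinning its shares, 10.2% and 4.91%, had overlapping intervals. Crct1 UMIs were 5.46-fold higher (4.11 to 7.22), but the 98 UMIs on the higher side lay in 4 of 83 cells. The shares of cells, 4.82% against 2.56%, had overlapping intervals.

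Alb had 1 UMI in 98 cells with 2 or more of the other 5 rule genes, against 61 of 975 cells with 0, a CPM ratio of 0.049 (0.0012 to 0.281). Ahsg stood at 2.80 and 2.97 CPM, a ratio of 0.943 (0.233 to 2.84). Free RNA can give such UMIs to cells of any type, and its part was not tested. Alb was found in 6.12% of all gated YAP5SA cells (13.7 CPM, median 5746.5 UMIs a cell) and in 4.01% of cells with macrophage markers and none of the 5 epithelial genes (8.03 CPM, median 4984 UMIs). Over all YAP5SA cells with none of those 5 genes, Alb was at 2.60% and 7.07 CPM (median 3332.5 UMIs). The highest gated cell held 17 Alb UMIs and the highest member 13. Ahsg was found in 2.56% of the gated cells and 1.67% of the macrophage-marked cells. For Cxcl5 the macrophage-marked cells stood at 2.45% and 5.54 CPM, for Mmp7 at 0.669% and 1.15 CPM, for Wnt7a at 2.12% and 3.63 CPM, and for Crct1 at 0.446% and 0.765 CPM.

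**Figure D1:**
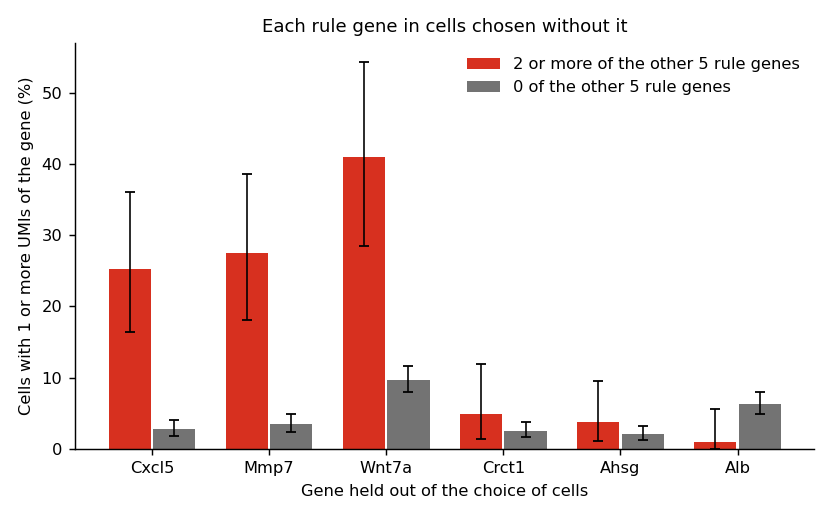
Percent of gated YAP5SA cells with at least 1 UMI of each rule gene, among cells chosen by the other 5 genes (red, 2 or more present; grey, 0 present); bars are shares of cells and error bars exact 95% intervals. Cxcl5 (25.3% against 2.77%), Mmp7 and Wnt7a stand apart, and Alb is the only gene whose grey bar is the higher one (1.02% against 6.26%).

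Of the 15 pairs of rule genes, the 4 with the highest ratios joined Cxcl5, Mmp7, Wnt7a and Crct1. Cxcl5 and Mmp7 shared 35 cells of the gate, 6.35 times the product of their shares. Wnt7a shared 37 cells with Mmp7 (3.00 times), 29 with Cxcl5 (2.68 times) and 27 with Crct1 (3.28 times). Crct1 shared only 4 cells with Cxcl5 (1.09 times) and 3 with Mmp7 (0.717 times). Ahsg and Wnt7a shared 8 cells (1.77 times), the other Ahsg pairs lay between 1.30 and 1.48 times, and pairs with Alb between 0.461 and 1.48 times. The ratio grows where both genes are read more easily in deep cells, so it describes co-occurrence and is not a test. Among members the commonest sets were Wnt7a with Crct1 (23 cells), Cxcl5 with Mmp7 and Wnt7a (19), Cxcl5 with Mmp7 (15) and Mmp7 with Wnt7a (15).

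**Figure D2:**
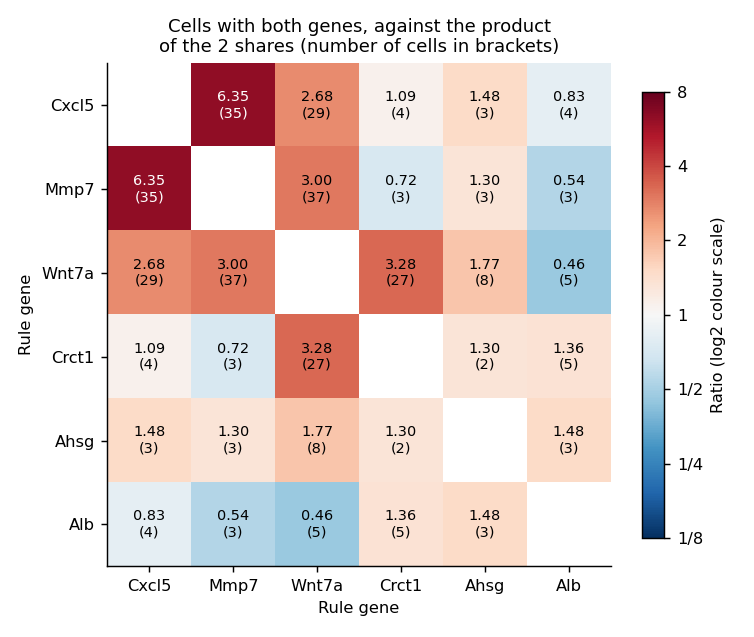
Each square is a pair of rule genes in the 1290 gated YAP5SA cells; the colour and upper number are the cells with both genes over the product of the 2 shares, and the number in brackets is the cells with both. Cxcl5 with Mmp7 has the darkest square (6.35, 35 cells), while Crct1 pairs with Wnt7a (3.28) and stays near 1 with Cxcl5.

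No gated cell of the control or YapKO library held 2 or more rule genes. With 2 or more rule genes there were 0 of 338 control cells, which allows a share of up to 0.888% taken as 3 counts of the total, and 0 of 437 YapKO cells, which allows up to 0.686% on the same reckoning. The exact Clopper-Pearson upper bounds are 1.09% and 0.841%. Just 2 cells in each of these libraries had 1 rule gene. After thinning to 2000 UMIs the shares were 30 of 1112 YAP5SA cells (2.70%, 1.83 to 3.83), 0 of 274 control cells and 0 of 373 YapKO cells. Cxcl5 and Crct1 had 0 UMIs in the whole control and YapKO gates. The rule genes were chosen with earlier results of these data known, so these shares describe the rule and are not an independent test of it. Only YAP5SA cells were clustered. Whether the control and YapKO gates hold cells like the members in genes outside the rule was not tested. Each genotype is 1 library, so genotype and library cannot be told apart.

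Lcn2, the lipocalin 2 gene, belongs to the label of the cells but not to the rule. It was found in 83 of 115 members (72.2%, interval 63.0 to 80.1), with a lowest, median and highest cell of 0, 2 and 204 UMIs. In cells with 0 rule genes it was found in 187 of 914 (20.5%), with 0, 0 and 41 UMIs. The summed levels were 1191 and 66.3 CPM, a ratio of 17.9 (16.1 to 20.0), and 45.0% and 8.60% of cells held it after thinning. The ranges overlap, since 32 members had no Lcn2 UMI. The control and YapKO gates stood at 5.06 and 5.04 CPM. YAP5SA cells with none of the 5 epithelial genes stood at 168 CPM, above the cells with 0 rule genes and below the members. Cells with neutrophil markers, which are known for Lcn2, reached 1088 CPM, while the 8 neutrophil markers summed to 204 CPM in members and 292 CPM in cells with 0 rule genes.

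The acute-phase list as a whole went against the label in part: 7 of its 22 genes counted, and 3 of them, Lcn2, Cp and Lbp, were at least 2-fold higher (2.01% of all genes counted were). Cp and Lbp reached 20 CPM only in the members, and Hp only in the cells with 0 rule genes, so the minimum fixed their direction. Of the 4 that reached it in both sums, 1, Lcn2, was at least 2-fold higher. The median log2 ratio of the 7 was -0.07, or 1.44 in cells of 5000 to 10000 UMIs. These ratios compare members with cells with 0 rule genes and add 5 CPM to each level. Cp (ceruloplasmin, the copper carrier) stood at 29.8 CPM in members and 2.74 in cells with 0 rule genes, a ratio of 10.9 (6.13 to 20.2). Lbp, which presents bacterial lipopolysaccharide, stood at 48.2 and 11.3 CPM. The complement component C3 stood at 57.7 and 8.88 CPM. The classical liver-type genes were near 0: Saa1, Saa2, Orm1 and Fgg had 0 UMIs in the members, Fga had 1, Saa3 had 2 and Fgb had 4. Hp (haptoglobin) was at 19.7 against 32.3 CPM, though its log2 ratio was 1.44 in cells of 5000 to 10000 UMIs, and the metallothioneins Mt1 and Mt2 were also lower in members. Il6 had 0 UMIs in the members. Of the 12 hepatocyte markers 10 had at least 1 UMI in members (Cps1 and Cyp2e1 had 0), and they summed to 318 CPM against 217, with a median cell of 0 in both. A single cell held 382 of the 394 Apoa1 UMIs of the members. The cells are therefore referred to by the rule genes they hold.

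Levels of some genes outside the rule differed with the number of rule genes a cell held. Lcn2 stood at 66.3 CPM with 0 rule genes, 266 with 1, 689 with 2 and 2390 with 3. Ankrd1, a TEAD target, stood at 38.6, 151, 350 and 307 CPM. Cym, the chymosin gene, ran the other way, from 24994 to 18969, 4247 and 3251 CPM. Just outside the threshold (1 gene) and just inside it (2 genes), Clu stood at 1629 and 2674 CPM, Spp1 at 166 and 276, and Pga5 at 61.1 and 8.75. Median depth also differed along this series, from 5093.5 to 7262, 10666.5 and 15717 UMIs. So did the mix of rule genes: 19 of the 23 cells with 3 held Cxcl5, Mmp7 and Wnt7a, and 23 of the 90 with 2 held Wnt7a and Crct1. The parts of depth and of this mix in the levels were not tested.

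**Figure D3:**
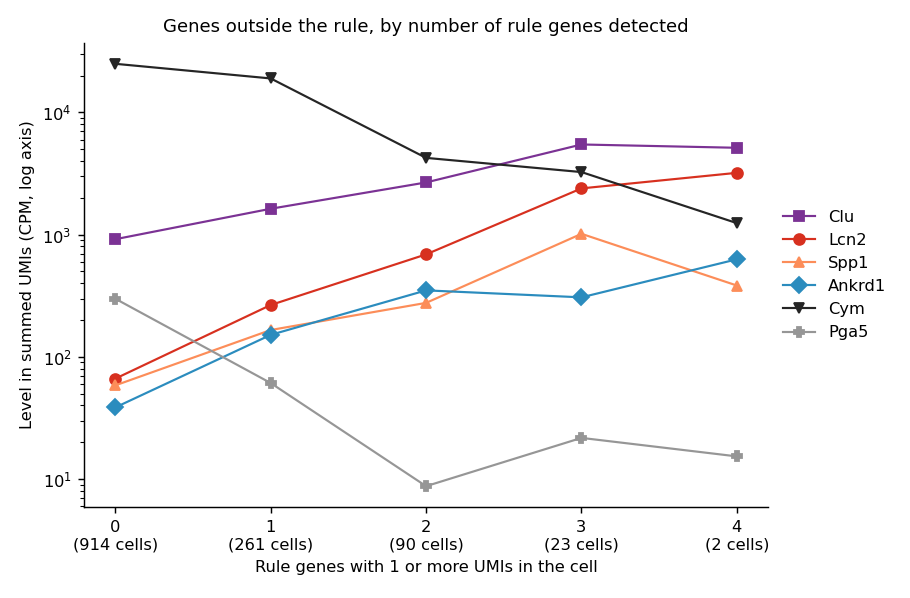
Level in summed UMIs (CPM, log axis) of 6 genes outside the rule in gated YAP5SA cells, by the number of rule genes with a UMI (cells per point under the axis). Lcn2 and Clu are higher at each step from 0 to 3 genes, and Cym is lower at each step; the point at 4 genes is 2 cells.

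Against cells with 0 rule genes, 6927 genes at 20 CPM or more in either sum were counted, with 5 CPM added before the log2 ratio and the rule genes left out. Of these, 139 (2.01%) were at least 2-fold higher in members and 81 (1.17%) at least 2-fold lower, and 53.1% lay above 0. Among the 12 highest were Lcn2, Ankrd1, Spp1, Pgf, Krtap3-2, Tm4sf4, Dmkn, C3, Slc39a4, Serpinb9b and Krt17. Ankrd1 stood at 351 against 38.6 CPM (log2 3.03) and was found in 62.6% of members and 13.5% of cells with 0 rule genes. It was at 0 and 0.504 CPM in the control and YapKO gates. Spp1 (osteopontin, a secreted matrix and cytokine-like protein) stood at 454 against 58.4 CPM (log2 2.85), with a lowest, median and highest member of 0, 1 and 81 UMIs. The control and YapKO gates stood at 75.4 and 64.3 CPM of Spp1.

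Genes of a growth factor, of membrane proteins and of a keratin were also among the highest. Pgf, the placental growth factor, stood at 62.8 against 5.16 CPM and was found in 24.3% of members and 2.95% of the comparison cells. In cells of 5000 to 10000 UMIs the log2 ratio of Pgf was 0.64, down from 2.74 over all depths. Tm4sf4, a tetraspanin-like membrane protein, stood at 63.4 against 7.75 CPM, and the zinc importer Slc39a4 at 62.2 against 10.0 CPM. In the control and YapKO gates Slc39a4 stood at 42.3 and 29.2 CPM, above the cells with 0 rule genes, and Tm4sf4 at 4.14 and 7.56. The keratin Krt17, found in wounded and basal epithelium, stood at 302 against 64.6 CPM, and its log2 ratio of 2.14 was 1.23 in cells of 5000 to 10000 UMIs. Krtap3-2 and Dmkn rested on few cells: 5 members held Krtap3-2, and 12 held Dmkn. In cells of 5000 to 10000 UMIs, which held 24 of the 115 members, their log2 ratios turned to -1.27 and -0.71.

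The 12 lowest genes were Pga5, Clps, Gsta1, Tff1, Bpifb1, Cldn18, Cym, Ptgr1, Mucl3, AU021092, Anxa10 and Lgals4. Cym had a lowest, median and highest member of 0, 16 and 1236 UMIs, against 0, 74 and 2391 in cells with 0 rule genes. Its summed level was 3890 against 24994 CPM, 6.43-fold lower (6.26 to 6.59), and the control and YapKO gates stood at 40308 and 39212 CPM. Cldn18, the claudin of stomach tight junctions, stood at 39.3 against 290 CPM and was found in 24.3% of members and 56.0% of the others. Pga5, a pepsinogen gene, was at 12.1 against 299 CPM, yet similar shares of cells held it (13.9% and 15.4%), and 1 cell held 23.3% of the UMIs of the cells with 0 rule genes. A cluster of 44 gated cells led by Pga5 and Clps held 0 members. Tff1, a trefoil peptide secreted with surface mucus, stood at 8.25 against 97.0 CPM in 10.4% and 8.75% of cells. Its shares after thinning were 0.917% and 4.17%, also with overlapping intervals. Gsta1, a glutathione transferase, stood at 12.7 against 144 CPM and was found in 9.57% and 33.0% of cells. Clps (colipase) had 1 UMI in the members and 352 in the others.

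Of the 23 genes of the gastric secretory list, 5 reached 20 CPM, and each did so only in the cells with 0 rule genes, so the minimum fixed their direction. Beside the 3 named above they were Tff2 (5.71 against 44.7 CPM) and Muc5b (3.81 against 22.1 CPM). The pit markers Gkn1, Gkn2 and Muc5ac had 0 UMIs in members. They were scarce in the comparison cells as well, at 2.10 CPM for Gkn1 and 0.807 for Muc5ac. Among 28 endoderm transcription factors 12 counted, 8 of them at 20 CPM or more in both sums. Foxa3 had 10 UMIs in members and 161 in the others (log2 -1.45), Gata4 stood at 19.0 against 45.4 CPM, and Onecut2 was the highest at 217 against 65.9 CPM. The antioxidant list had a median of -0.12, with Gsta1, Gsta4 (238 against 869 CPM) and Gstm1 (34.9 against 91.5 CPM) at least 2-fold lower.

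Of 20 genes of fetal and regenerative epithelium 19 counted. Of these, 17 lay above 0 and 6 were at least 2-fold higher, against 53.1% and 2.01% of all genes counted. The list median was 0.74 against 0.02 over all genes. Of the 16 at 20 CPM or more in both sums, 15 lay above 0 and 4 were at least 2-fold higher. Spp1 led them, followed by Clu (clusterin, 3428 against 918 CPM) and Tm4sf1 (33.0 against 7.91 CPM), and Anxa10 was the lowest at 11.4 against 75.9 CPM. Clu stood at 1320 CPM in the control gate and 1086 in the YapKO gate. Of 27 YAP and TEAD targets 25 counted, 20 lay above 0 and 4 were at least 2-fold higher, with a median of 0.24. Of the 22 at 20 CPM or more in both sums, 17 lay above 0 and 3 were at least 2-fold higher. Ccn2 stood at 403 against 175 CPM, Ccn1 at 567 against 304, and F3 (tissue factor) at 495 against 140, though F3 had a log2 ratio of -0.47 in cells of 5000 to 10000 UMIs. Yap1 itself stood at 53.9 and 55.0 CPM, a ratio of 0.98 (0.763 to 1.25), and whether its count includes transgene mRNA is not known here.

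All 10 p53-response genes counted lay above 0 (median 0.57), against 53.1% of all genes counted (median 0.02). Cdkn1a, the cell-cycle inhibitor p21, stood at 464 against 221 CPM and Phlda3 at 201 against 92.2. Cdkn2a, which encodes p16 and p19Arf, stood at 140 against 45.0 CPM and at 0 and 1.51 CPM in the control and YapKO gates. Of 17 Wnt ligands 4 counted and all lay above 0: Wnt10a at 73.0 against 23.7 CPM, Wnt7b at 206 against 107, Wnt4 at 670 against 401 and Wnt6 at 22.2 against 13.1. Wnt6 reached 20 CPM only in the members, so the minimum fixed its direction. In cells of 5000 to 10000 UMIs Wnt4 and Wnt6 turned to -0.30 and -0.62. Wnt7b stood at 1.38 and 0.504 CPM in the control and YapKO gates. Chemokines and cytokines other than Cxcl5 had a median of 0.04, with no gene of 8 counted at 2-fold. NF-kB feedback genes had a median of 0.13, also with none of 16 at 2-fold. Cxcl1 was at 33.0 against 30.3 CPM and Cxcl2 at 224 against 296. Mki67, one of the mitosis genes by which the gate removed cells, was at 19.0 against 25.5 CPM.

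**Figure D4:**
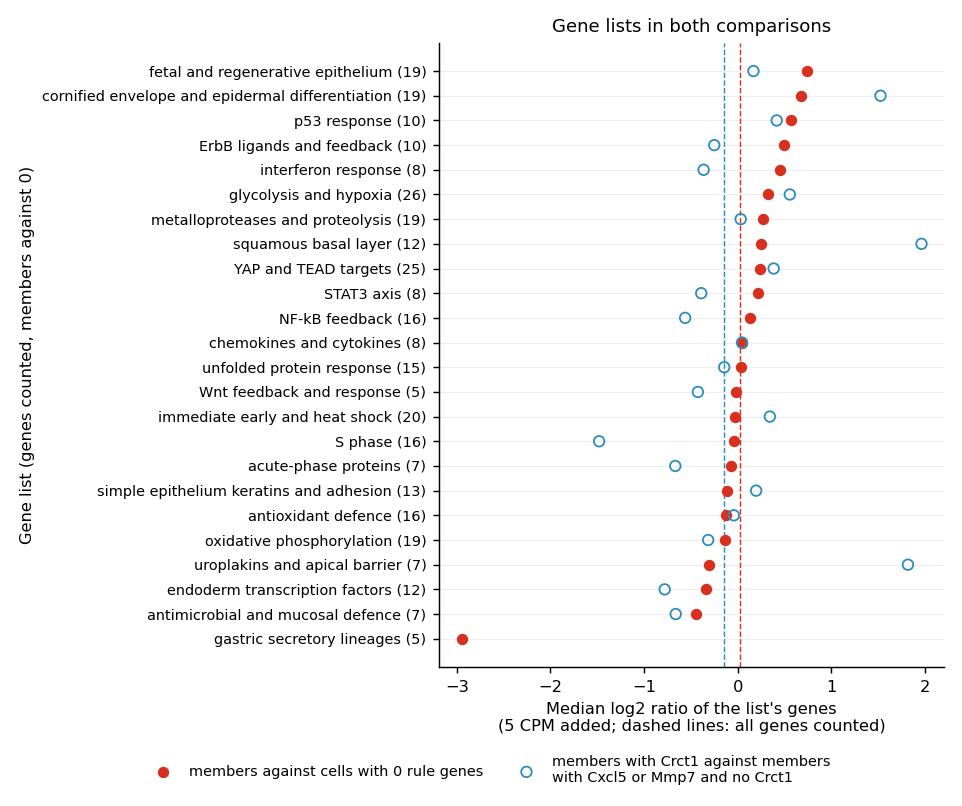
Median log2 ratio (5 CPM added) of the gene lists with 5 or more genes counted. Filled circles compare members with cells with 0 rule genes, open circles compare members with Crct1 with members holding Cxcl5 or Mmp7 and no Crct1; dashed lines are the medians over all genes counted (0.02 and -0.14). The squamous basal list lies highest among the open circles (1.97). The gastric secretory filled circle rests on 5 genes that reached 20 CPM only in the cells with 0 rule genes, and 11 of the 17 genes of the S phase open circle reached it only in the Cxcl5 or Mmp7 members.

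The members were not one profile. A split chosen after the pairs had been seen set 36 members with a Crct1 UMI against 68 with Cxcl5 or Mmp7 and no Crct1, leaving 11 with neither. Median depth was 19051.5 and 8094.5 UMIs. Of 7240 genes counted, 401 (5.54%) were at least 2-fold higher with Crct1 and 645 (8.91%) at least 2-fold lower, with 40.2% above 0 and a median over all genes of -0.14. Over cells of more than 10000 UMIs the counts were 447 and 732. The 8 highest with Crct1 were Apoa4, Apoa1, Krtap3-2, Serpinb9b, Dmkn, Prap1, Krt13 and Cnfn, of which Apoa4, Apoa1 and Prap1 had 99.5% or more of their UMIs in 1 cell. The 8 lowest were Spp1, Lcn2, Reg3b, Tm4sf4, Akr1b7, Ly6a, Muc1 and Pamr1.

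Lcn2, Spp1, Clu and C3 were higher in the members with Cxcl5 or Mmp7. Lcn2 stood at 2341 CPM in the Cxcl5 or Mmp7 members (59 of 68 cells, with a lowest, median and highest of 0, 8.5 and 204 UMIs) and at 133 CPM in the Crct1 members (19 of 36 cells, with 0, 1 and 32 UMIs), 17.5-fold lower (14.1 to 22.0). Spp1 stood at 903 and 37.3 CPM, and Clu at 5909 and 1175 CPM. C3 (110 and 9.31 CPM), Lbp (89.2 and 7.76 CPM), Cp (53.8 and 6.21 CPM) and the complement factor Cfb (59.0 and 4.66 CPM) shared that direction. Reg3b, an antimicrobial lectin, had 59 UMIs in 13 of the Cxcl5 or Mmp7 members and 0 in the Crct1 members, at least 16.6-fold lower against a floor of 3 counts over the set. Tm4sf4 (127 and 4.66 CPM) and Slc39a4 (119 and 10.9 CPM) were in the same members. The transcription factor Onecut2 was also higher there, at 360 against 94.7 CPM. Of the 8 antimicrobial and mucosal defence genes counted, 4 were at least 2-fold lower with Crct1 (8.91% of all genes counted were). Those 4 reached 20 CPM only in the Cxcl5 or Mmp7 members, so the minimum fixed their direction. Of the 4 that reached it in both sets, 0 were at least 2-fold lower and 2, Lyz2 and S100a8, lay above 0. The complement regulator Cd55 was higher with Crct1 (log2 1.62) and reached 20 CPM only there. Of 17 S phase genes counted, 11 reached 20 CPM only in the Cxcl5 or Mmp7 members, among them the replication licensing genes Mcm3 (9 UMIs with Crct1 against 46) and Mcm5 (6 against 36). Of the 6 that reached it in both sets, 4 were at least 2-fold lower with Crct1 and 1 lay above 0.

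Serpinb9b, F3, Hspb1 and squamous genes were higher in the Crct1 members. Serpinb9b, a serpin protease inhibitor, stood at 438 CPM in them and 11.8 in the Cxcl5 or Mmp7 members, and in 58.3% against 8.82% of cells. F3 stood at 913 against 150 CPM, Ccn2 at 705 against 172, and the small heat shock protein Hspb1 at 4911 against 1105. Ankrd1 did not separate them to that degree, at 435 and 342 CPM, in 63.9% and 66.2% of cells. Pgf stood at 123 against 26.2 CPM and the uroplakin Upk1b at 486 against 30.2. All 12 squamous basal genes counted lay above 0 and 9 were at least 2-fold higher (median 1.97), against 40.2% and 5.54% of all genes counted. Of the 10 at 20 CPM or more in both sets, 7 were at least 2-fold higher. Krt13 stood at 529 against 27.6 CPM and Krt14 at 360 against 23.6. For the cornified envelope list 12 of 19 were at least 2-fold higher (median 1.53), as were 6 of the 12 at 20 CPM or more in both sets, with Sprr1a at 5134 against 631 CPM.

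Part of that squamous level came from few cells. A single Crct1 member held 43.4% of the Krt13 UMIs of its set, and 1 held 97.4% of the Cnfn UMIs. All members together held 995 Krt13 UMIs, of which 341 and 21 were in these sets, and a single member outside both sets held 504. Without the cells that held 3 or more of 8 squamous markers (22 of 115 members, 110 of 914 cells with 0 rule genes), the cornified median between the 2 kinds of member turned to -0.07. Krt13 then had a log2 ratio of 0.54 and the squamous basal median was 1.12. Serpinb9b kept a log2 ratio of 4.94 and Lcn2 one of -4.66, from 4.72 and -4.08 with all members. Both kinds of member had low Cym, at 1810 CPM with Crct1 and 4314 with Cxcl5 or Mmp7.

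**Figure D5:**
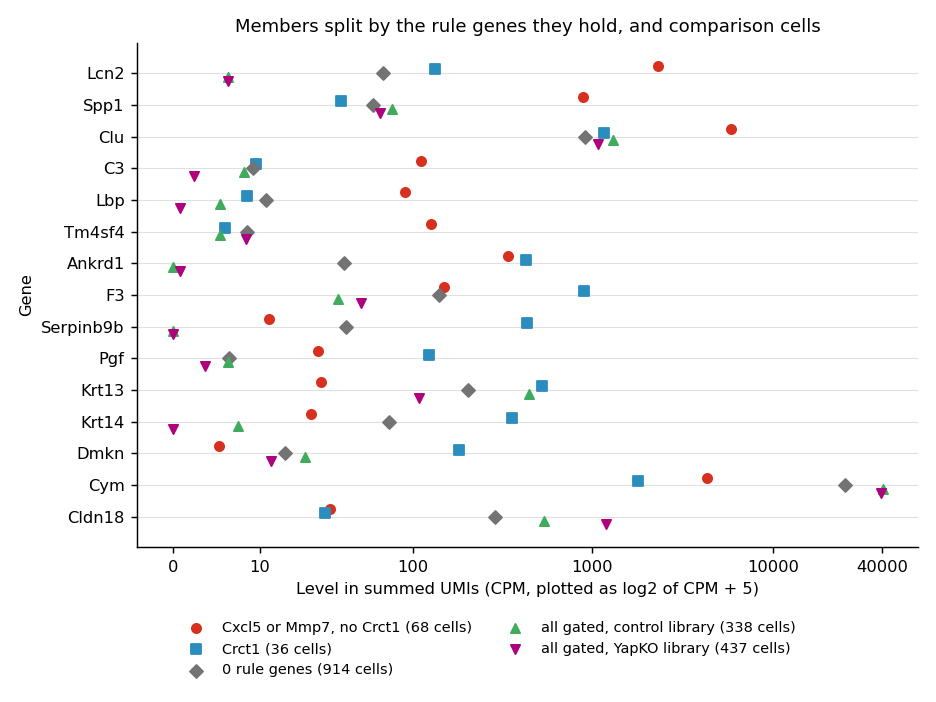
Level in summed UMIs (CPM, plotted as log2 of CPM + 5) of 15 genes in members with Cxcl5 or Mmp7 and no Crct1 (red circles), members with Crct1 (blue squares), YAP5SA cells with 0 rule genes (grey diamonds) and all gated cells of the control and YapKO libraries (triangles). Lcn2, Spp1, Clu, C3, Lbp and Tm4sf4 are highest in the red set and F3, Serpinb9b, Pgf and Krt14 in the blue set, while Ankrd1 is high in both (342 and 435 CPM).

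The 29 members with Alb or Ahsg were compared with the 86 with neither. Of 7039 genes, 209 (2.97%) were at least 2-fold higher with Alb or Ahsg, 227 (3.22%) at least 2-fold lower, and 46% lay above 0. Lcn2 stood at 591 against 1478 CPM (log2 -1.31) and Cp at 13.7 against 37.5 CPM. Mmp7 was at 25.5 against 235 CPM, which the rule helps to set, since a cell with Alb needs only 1 further gene. The highest genes were Apoa4, Apoa1, Cyp2f2, Prap1, Cbr2, Pllp, Phgr1 and Krt4, and in 7 of these 8 a single cell held between 50.2% and 100% of the UMIs. The exception was Phgr1 at 36.5%. Krt4 stood at 2017 against 177 CPM, with 50.2% of its UMIs in 1 cell. The lowest were Akr1b7, Krtap3-2, Aif1l, Serpinb9b, Bst1, Reg3b, Ccdc80 and Sprr1a. Akr1b7, an aldo-keto reductase, had 1 UMI against 61.

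Clustering the 1290 gated cells without the rule genes gave 13 clusters. Of the members, 82 (71.3%) lay in 2 of them that held 248 cells, and 3 clusters held none. The first, of 162 cells, held 58 members (35.8% of the cluster, 28.4 to 43.7), 54 of them with Cxcl5 or Mmp7 and no Crct1. Its leading genes were Cxcl5, Mmp7, Lcn2, Spp1, Akr1b7, Cp, Tm4sf4, Gc, Reg3b and Dcdc2a. The other, of 86 cells, held 24 members (27.9%, 18.8 to 38.6), 19 of them with Crct1, and was led by Crct1, Ager, Serpinb9b, Fst, Cdkn2a, Vgf, Ankrd1 and Wnt7a. Krt13 stood at 16.5 CPM in that cluster, under the 529 CPM of all Crct1 members. Alb was a leading gene of another cluster, of 146 cells with 2 members, where it stood at 34.1 CPM. A cluster of 34 cells led by the macrophage genes Lyz2, Apoe and Ctss held 4 members, and 23 of its cells were among the highest doublet scores. The 1 member in a cluster of 25 cells led by Apoa4, Apoa1 and Prap1 held Crct1 and Alb or Ahsg.

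The rule caught only part of the 2 clusters that held most members. In the first, 58 members stood at 2743 CPM of Lcn2, 60 cells with 1 rule gene at 1372 and 44 cells with 0 at 712 CPM. Their median depths were 8058.5, 4776 and 3246.5 UMIs. In the same order Lcn2 was found in 89.7%, 73.3% and 63.6% of those cells. Clu stood at 6569, 5647 and 4117 CPM and Cym at 2491, 3734 and 3542 CPM, against 24994 CPM of Cym over all cells with 0 rule genes. Reg3b was highest in the cells with 0, at 58.0, 72.2 and 171 CPM. The second cluster held 24 members, 31 cells with 1 rule gene and 31 with 0, with median depths of 13714, 6030 and 3265 UMIs. In that order Ankrd1 stood at 759, 505 and 334 CPM, Serpinb9b at 721, 232 and 240, and Cdkn2a at 348, 450 and 642. Lcn2 was among the clustered genes, so these levels describe the clusters.

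Markers of other cell types were read in the members as a whole. Macrophage markers (8 of 8 with a UMI) summed to 531 CPM in members and 613 in cells with 0 rule genes, with cells ranging from 0 to 5196 and from 0 to 17528 CPM. At least 3 of the 8 were found in 64.3% of members and 32.8% of the others, whose depths differ as given above. Fibroblast markers (7 of 7) summed to 3277 and 3557 CPM. Erythroid markers (7 of 7) summed to 4981 and 11208 CPM, and every member held at least 3 of them. Mesothelial (150 and 185 CPM, Muc16 at 0 in members) and endothelial markers (41.9 and 54.1 CPM) were likewise no higher in members. Squamous markers summed to 2588 and 2670 CPM, with a median cell at 128 and 428 CPM. Intestinal markers were at 161 and 102 CPM with Cdx2 at 0 in members, and neck and chief markers at 24.1 and 375 CPM. Pancreatic acinar markers were at 8.25 and 9.68 CPM, with 4 of 6 at 0 in members. These sums lay at or below the comparison cells apart from the hepatocyte and intestinal lists. In the hepatocyte list 1 member held 382 of 394 Apoa1 UMIs, and in the intestinal list 1 member held 234 of 237 Apoa4 UMIs. Their part in the results was not tested.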

How the data were processed

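Per the file headers, PISA 1.0 wrote the deposited matrices, whose counts are whole UMIs. STAR and GRCm39 are named in the submitters' processing notes, and no label mentions removal of doublets or of free RNA. No deposited cell has fewer than 1000 UMIs. No deposited annotation of cell types was used. The 6 genes, gates, gene lists and alternatives were chosen with earlier results of these data known.

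UMIs were summed over each set of cells and scaled to CPM. Ratios of sums carry exact conditional 95% intervals of 2 Poisson counts, and log2 ratios add 5 CPM. Genes at 20 CPM or more in either sum were counted. Named genes are the 12 highest and 12 lowest log2 ratios at 50 CPM or more (8 and 8 within the members), leaving out the rule genes, Y-linked genes, Xist and Tsix, and genes that are predicted, mitochondrial or code for haemoglobin or ribosomal proteins, plus up to 3 at each end of each of 28 lists and a fixed set of single genes. 1 gene that this rule picks is not reported here. Other genes named were chosen after their values were seen. The summing and interval steps recovered known changes in simulated counts. Scrublet called 0 of 9029 cells by its own threshold, so doublets were kept and the highest 6% of scores were left out as an alternative. Clustering used Leiden at resolution 1.0 on 2000 variable genes, 30 components and 15 neighbours. Markers of 15 other cell types were read. The tools were scanpy 1.11.5, igraph 0.11.9, matplotlib 3.10.9, scipy 1.17.1, numpy 2.4.6 and pandas 2.3.3 under Python 3.11.15.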

Additional observations from a re-analysis of the deposited data

How the results depend on the processing

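With 1 library per genotype no replicate could be left out. No paired analysis was possible because each genotype is 1 library. The share of gated cells that are members was 2.70% from 2000 UMIs a cell, 1.94% with 3 or more rule genes, 7.05% without Alb and Ahsg in the rule and 5.70% with no keratin minimum. Against 2.70% thinned to 2000 UMIs, the YAP5SA share was 8.91% unthinned and 5.86% at 4000. At clustering resolution 0.5, 1 of 7 clusters held 79.1% of members.

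For members against cells with 0 rule genes, the counts of 2-fold higher and lower genes were 675 and 569 in cells of 5000 to 10000 UMIs (24 members). They were 476 and 358 with membership from 2000 UMIs, 296 and 238 with 3 or more rule genes, and 327 and 203 with the non-epithelial profile subtracted. The lower count was 135 without Alb and Ahsg, 247 with no keratin minimum, 133 with no CPM minimum, 125 with cells weighted equally and 146 without squamous-marker cells (an alternative added after seeing the data). The Lcn2 log2 ratio was 5.07 at 5000 to 10000 UMIs, 5.14 with 3 or more rule genes, 3.23 against cells with 0 or 1, 4.42 without Alb and Ahsg, 3.43 with no keratin minimum, 3.89 with equal weights and 5.84 with the profile subtracted.

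Within the members, the Alb or Ahsg counts were 2292 and 2578 at 5000 to 10000 UMIs, a band of 24 members in all. They were 459 and 638 with no CPM minimum, 514 and 409 with equal weights, and 473 and 555 with the profile subtracted.

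Of 312 values of the 24 named genes, 306 kept their direction, and of 130 list medians 121 did. Krtap3-2 turned to -1.27 at 5000 to 10000 UMIs, -1.59 with membership from 2000 UMIs and -1.0005 with 3 or more rule genes. Dmkn turned to -0.71, -2.72 and, without squamous-marker cells, -0.18. The cornified median turned to -1.07, -0.45, -0.12 with 3 or more rule genes and -0.10 without squamous-marker cells, and to -0.0673 between members with Crct1 and with Cxcl5 or Mmp7. The glycolysis median turned to -0.0546 and -0.0244 at 5000 to 10000 UMIs and with 3 or more rule genes. With no keratin minimum the uroplakin (0.46), interferon (-0.20) and endoderm factor (0.0584) medians turned. The cause was not tested.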

Other observations

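Genes of low oxygen and glucose uptake were also read in the members. Against cells with 0 rule genes, 53.1% of all genes counted lay above 0. Of 26 glycolysis and hypoxia genes counted, 21 did (median log2 0.33). The median turned to -0.0546 in cells of 5000 to 10000 UMIs and to -0.0244 with 3 or more rule genes. The list was led by Adm (adrenomedullin) at 99.6 against 21.5 CPM and Car9 (carbonic anhydrase 9) at 31.1 against 6.29 CPM. Between the 2 kinds of member, Adm stood at 202 CPM with Crct1 and 30.2 with Cxcl5 or Mmp7, and Slc2a1 (the glucose transporter GLUT1) at 2008 against 504 CPM. In the interferon list 7 of 8 genes counted lay above 0 against cells with 0 rule genes, where 53.1% of all genes did. Bst2 (tetherin) stood at 143 against 57.0 CPM. Ly6a, a surface protein used as a mark of regenerating gut epithelium, had 46 UMIs in 21 of the 68 Cxcl5 or Mmp7 members and 1 UMI in the Crct1 members. The ligand Hbegf of the ErbB family stood at 372 against 162 CPM in members and cells with 0 rule genes.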
